A study of Mus musculus with 15 samples.

Results

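The 10 desmosome genes described here were followed across epidermis and tongue of newborn mice: the desmogleins Dsg1a, Dsg1b, Dsg2 and Dsg3, the desmocollins Dsc1, Dsc2 and Dsc3, and the plaque genes Jup, Pkp1 and Dsp. They were taken by gene symbol, and all 10 were found among the 23420 mouse genes of the count table. The 15 libraries came from KO epidermis (4), WT epidermis (3), KO tongue (4) and WT tongue (4). Every mouse was at postnatal day 1. KO mice were Tmprss11a,b,c,d,e,f,g-/-, with edited alleles of the gene cluster that encodes the HAT/DESC family of membrane-bound serine proteases, and WT mice were wild type at these genes. The labels name no transgene or Cre driver for any group. The sample descriptions hold 9 numbers, read here as animal numbers although the labels do not say so, of which 6 stand for both tissues. The study compared tissues of mice with and without the whole protease family. Epidermis had been peeled from dermis, and tongue was taken as an organ with its muscle.

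Desmosomes are cell junctions that anchor the keratin filaments of neighbouring epithelial cells to each other. Their adhesive part is made of 2 cadherin families, desmogleins and desmocollins, whose tails bind plakoglobin (Jup) and plakophilins (Pkp genes). These in turn bind desmoplakin (Dsp), which holds the keratins. In stratified epithelia Dsg1 and Dsc1 are known from the upper layers, Dsg3 and Dsc3 from the lower layers, and Dsg2 and Dsc2 are the pair of simple epithelia and heart.

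The libraries held 10117819 to 17819195 counts on mouse genes. WT epidermis 1 stood apart: mitochondrial ribosomal RNA took 44.6% of its counts, against 20.1% to 23.8% in the other 6 epidermis libraries and 35.5% to 40.8% in tongue. It was the lowest of the 7 epidermis libraries for each of the 10 genes, so some results that rest on it are also given without it. The WT epidermis shares and ratio means, and most WT tissue differences, are given only with it. Of the 7 targeted genes 6 were in the table. Tmprss11a was at 81.6 ± 5.76 CPM (counts scaled to library size) in KO tongue and 235 ± 7.29 CPM in WT tongue (SD, n = 4 each). Tmprss11a and Tmprss11b passed the test as lower in KO than in WT tongue, and none passed in epidermis, and the other targeted gene was not analysed here. Tissue markers went with the labels. The spinous keratin Krt10 lay between 8044 and 18410 CPM in epidermis and between 34.9 and 80.8 CPM in tongue. The oral keratin Krt13 lay between 10.3 and 45.5 CPM in epidermis and between 2650 and 4438 CPM in tongue.

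Dsc2 was scarce in epidermis and was the main desmocollin of tongue, while 8 of the 10 genes were higher in epidermis per library and Dsg3 did not pass in either direction. Set against epithelial genes instead of the whole library, Dsg1a and Dsg1b turned lower in epidermis and Dsg3 passed as lower. On that scale 86.1% of all genes were lower in epidermis in KO and 77.4% in WT. Dsc3, Dsp and Pkp1 lost their call, and Dsc1 lost it in WT only, with WT epidermis 1 included. Apart from Dsc1 on that scale, the tissue calls were made in both genotypes. None of the 10 genes passed the test between KO and WT. With edgeR's quasi-likelihood test and a threshold of 0.05 on the adjusted p, 8 genes were higher in epidermis in KO and the same number in WT. Of all genes tested, 32.7% were higher in epidermis in KO and 32% in WT. Dsc2 was higher in tongue in both, as were 31.1% of all genes in KO and 31.6% in WT. In either direction 63.8% of genes passed in KO and 63.6% in WT, in a comparison where most genes passed. Without WT epidermis 1 the same number of the 10 genes, 9, passed in WT, with log2 differences from -4.83 for Dsc2 to 3.02 for Dsc1. In bulk tissue, fewer cells of a type and less RNA per cell cannot be told apart. Skeletal muscle genes, 8 of 8 higher in tongue, summed to 81.6 to 674 CPM in KO epidermis, 92.0 to 244 CPM in WT epidermis, 27279 to 47603 CPM in KO tongue and 23977 to 46093 CPM in WT tongue. Their part in the tissue differences was not tested beyond the epithelial scaling given later.

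**Figure D1:**
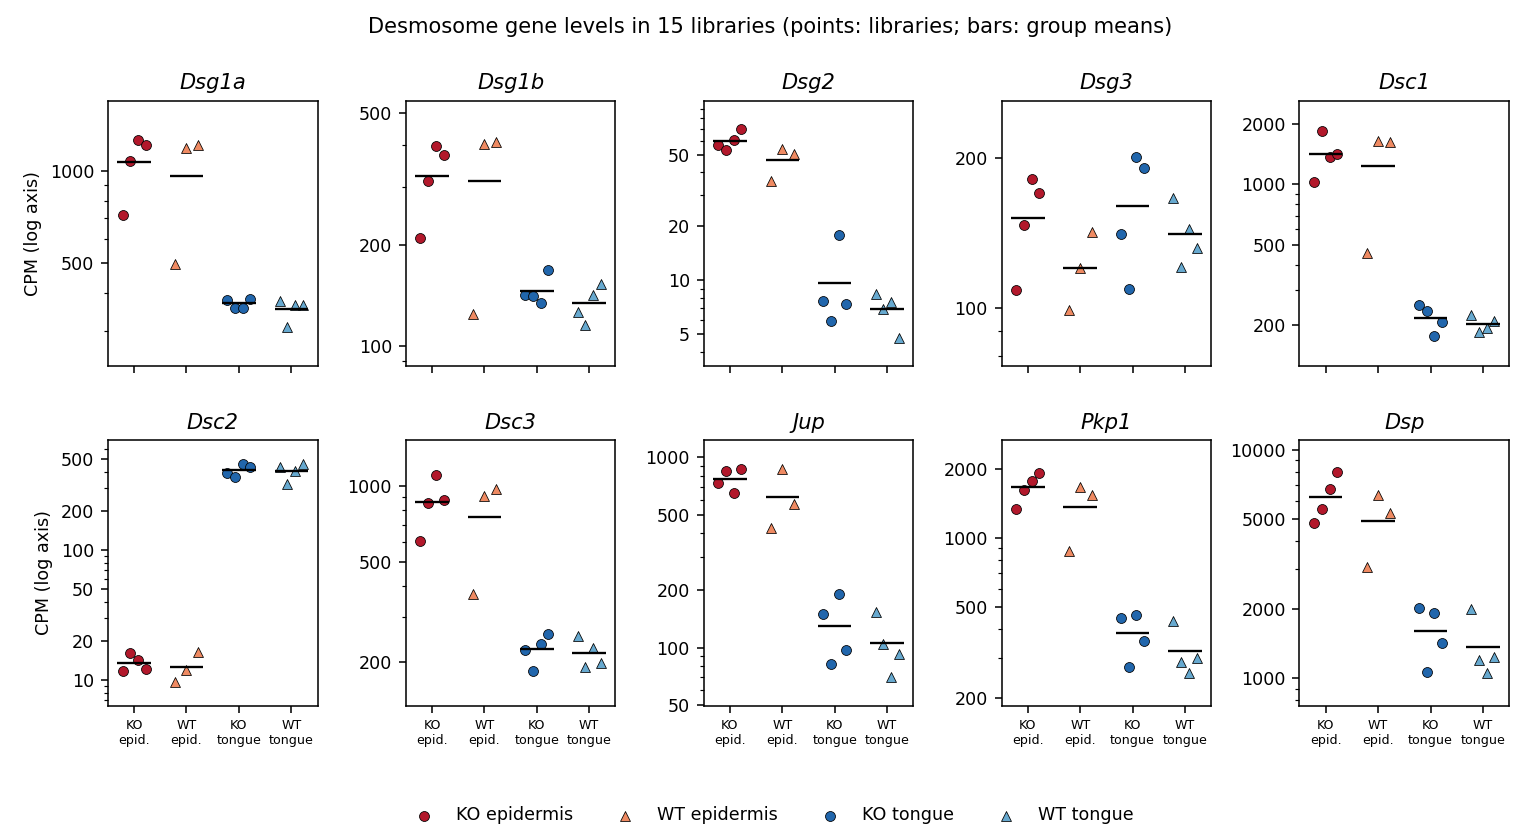
Level of each of the 10 genes in the 15 libraries, in CPM on log axes that differ between panels; points are libraries, horizontal bars are group means, and groups run from KO epidermis to WT tongue. Dsc2 lies at 9.68 to 16.4 CPM in the 7 epidermis libraries and at 321 to 460 CPM in the 8 tongue libraries, and Dsg3 overlaps between the tissues.

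The desmogleins differed in how they were divided between the tissues. The 7 cadherin genes lie in a cluster on chromosome 18 (GRCm38), the desmocollins on the minus strand between 19960930 (end of Dsc3) and 20114871 (start of Dsc1) and the desmogleins described here on the plus strand between 20310811 (start of Dsg1a) and 20604521 (end of Dsg2). Dsg1a and Dsg1b are 2 mouse copies of the single human desmoglein 1, the desmoglein of the outer layers. Dsg1a was at 720, 1078, 1267 and 1219 CPM in KO epidermis and at 496, 1190 and 1214 CPM in WT epidermis. It was at 379, 355, 357 and 381 CPM in KO tongue and at 376, 308, 365 and 364 CPM in WT tongue. The tissues did not overlap, and KO epidermis 1 and WT epidermis 1 were the low libraries of their groups. Dsg1a was 2.97-fold higher in KO epidermis than in KO tongue (log2 difference 1.57, SE 0.21, edgeR adjusted p = 4.39e-05) and 2.77-fold higher in WT epidermis than in WT tongue (1.47, SE 0.29, adjusted p = 0.00183).

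Dsg1b had a similar pattern at a lower level per kb of exon. It was at 210, 311, 396 and 374 CPM in KO epidermis and at 125, 402 and 407 CPM in WT epidermis. It was at 142, 140, 134 and 169 CPM in KO tongue and at 126, 116, 141 and 153 CPM in WT tongue. WT epidermis 1 lay within the tongue range, so the WT tissues overlapped for this gene, while the KO tissues did not. The log2 difference was 1.17 in KO (SE 0.21, edgeR adjusted p = 0.000352) and 1.23 in WT (SE 0.35, adjusted p = 0.0116). Without WT epidermis 1 the WT difference was 1.61 (edgeR adjusted p = 3.20e-08). The WT call did not hold without WT epidermis 2 (0.0550) or without WT epidermis 3 (0.0535), both fits that keep WT epidermis 1.

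The split between the 2 copies is uncertain, because 39.2% of the 37-base words of the Dsg1a transcript and 56.3% of those of Dsg1b, the length of a read, also occur in another gene, mostly in a Dsg1 copy. How the authors counted reads that match both is not given in the sources used here. With the copies summed into a single gene the log2 difference was 1.47 in KO (SE 0.22, edgeR adjusted p = 9.70e-05) and 1.41 in WT (SE 0.31, adjusted p = 0.00328). Dsg1c, the remaining copy, averaged 0.40 CPM in both KO and WT epidermis and 0.15 and 0.17 CPM in KO and WT tongue.

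Dsg3, the desmoglein of the lower layers and of oral epithelium, was the only one of the 10 genes with no tissue call per library. It was at 109, 147, 182 and 170 CPM in KO epidermis and at 98.9, 120 and 142 CPM in WT epidermis. It was at 141, 109, 202 and 191 CPM in KO tongue and at 166, 121, 144 and 132 CPM in WT tongue. All groups overlapped. The log2 difference was -0.05 in KO (95% confidence interval -0.54 to 0.44, edgeR adjusted p = 0.859) and -0.20 in WT (-0.60 to 0.19, adjusted p = 0.328).

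Dsg2, the widespread desmoglein of simple epithelia and heart, was the scarcest of the 4 desmogleins described here per kb of exon in both tissues. It was at 56.4, 53.3, 60.4 and 69.9 CPM in KO epidermis and at 35.9, 53.7 and 50.8 CPM in WT epidermis. It was at 7.68, 5.97, 17.8 and 7.44 CPM in KO tongue and at 8.43, 6.96, 7.54 and 4.77 CPM in WT tongue. The tissues did not overlap, and KO tongue 3 was well above the other 7 tongue libraries. The log2 difference of 2.67 in KO (SE 0.31, edgeR adjusted p = 1.56e-05) and 2.78 in WT (SE 0.22, adjusted p = 5.00e-06) was the widest of the desmogleins in either genotype. Tongue counts were low, from 59 to 179, and an antisense gene overlaps the Dsg2 exons. Whether the counting used strand is not given in the sources used here.

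Among the desmocollins, Dsc2 went the other way from its relatives. Dsc2 is the desmocollin that most desmosome-bearing tissues share. It was at 11.9, 16.3, 14.3 and 12.1 CPM in KO epidermis and at 9.68, 11.9 and 16.4 CPM in WT epidermis. It was at 389, 365, 460 and 434 CPM in KO tongue and at 439, 321, 408 and 460 CPM in WT tongue. The lowest tongue library was far above the highest epidermis library. Dsc2 was 29.7-fold lower in KO epidermis than in KO tongue (log2 difference -4.89, SE 0.18, edgeR adjusted p = 4.84e-09) and 31.5-fold lower in WT epidermis than in WT tongue (-4.98, SE 0.26, adjusted p = 4.51e-07). Of all genes tested, 5.48% had a lower epidermis-to-tongue difference in KO and 5.80% in WT. The epidermis values rest on 86 to 320 counts in a library.

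Dsc1, the desmocollin of the upper epidermal layers, was at 1028, 1851, 1375 and 1419 CPM in KO epidermis and at 457, 1640 and 1629 CPM in WT epidermis. It was at 251, 236, 177 and 208 CPM in KO tongue and at 225, 185, 194 and 209 CPM in WT tongue. The tissues did not overlap, and WT epidermis 1 was below every other epidermis library. The log2 difference was 2.72 in KO (SE 0.23, edgeR adjusted p = 8.67e-07) and 2.62 in WT (SE 0.39, adjusted p = 0.000288).

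Dsc3, known from the basal and lower layers, was at 605, 854, 1108 and 880 CPM in KO epidermis and at 372, 910 and 975 CPM in WT epidermis. It was at 223, 183, 234 and 258 CPM in KO tongue and at 253, 191, 228 and 199 CPM in WT tongue. The tissues did not overlap, and KO epidermis 1 and WT epidermis 1 were again the low libraries. The log2 difference was 1.97 in KO (SE 0.22, edgeR adjusted p = 9.83e-06) and 1.81 in WT (SE 0.31, adjusted p = 0.000686).

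Isoform use was then compared within each library, where library size cancels. Levels were divided by the exon length of each gene (CPM per kb) and given as a percent of the family's sum. Dsc2 made up 0.592% ± 0.082 of the desmocollin level in KO epidermis and 0.735% ± 0.357 in WT epidermis. In tongue it made up 47.9% ± 3.46 in KO and 48.8% ± 2.93 in WT (SD, n = 4, except n = 3 for WT epidermis, here and below). Dsc2 was thus the largest desmocollin share in all 8 tongue libraries and the smallest in all 7 epidermis libraries. Dsc1 held 63.3% ± 5.23 in KO epidermis, 61.8% ± 4.98 in WT epidermis, 26.7% ± 4.86 in KO tongue and 25.6% ± 1.40 in WT tongue. Dsc3 held 36.1% ± 5.25 in KO epidermis, 37.4% ± 4.62 in WT epidermis, 25.4% ± 2.21 in KO tongue and 25.6% ± 2.25 in WT tongue.

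Desmoglein use shifted less. The summed Dsg1 copies held 90.2% ± 0.831 of the desmoglein level in KO epidermis and 90.6% ± 3.53 in WT epidermis, against 80.9% ± 4.34 in KO tongue and 82.0% ± 1.73 in WT tongue. Dsg3 held 7.33% ± 0.264 in KO epidermis and 7.14% ± 2.79 in WT epidermis, against 18.1% ± 3.94 in KO tongue and 17.2% ± 1.59 in WT tongue. Dsg2 held 2.52% ± 0.598 in KO epidermis and 2.30% ± 0.753 in WT epidermis, against 0.931% ± 0.508 in KO tongue and 0.721% ± 0.169 in WT tongue. The sum of desmocollins over the sum of desmogleins, per kb, was between 1.31 and 1.79 in KO epidermis, 1.18 and 1.48 in WT epidermis, 1.24 and 1.33 in KO tongue and 1.302 and 1.42 in WT tongue. All 4 ranges overlapped, and the ratio was not tested.

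**Figure D2:**
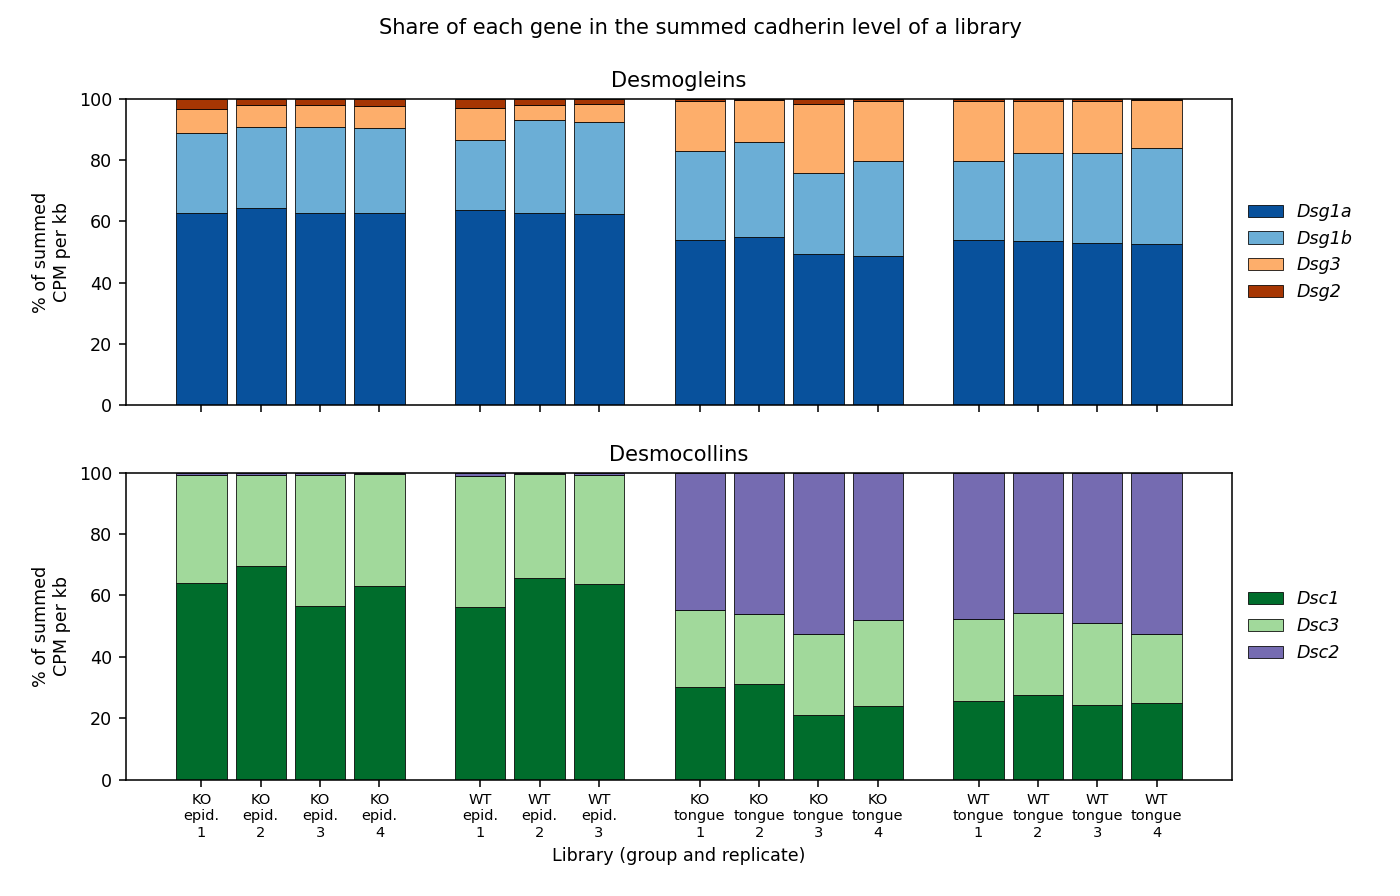
Share of each gene in the summed desmoglein level (top) and desmocollin level (bottom) of each of the 15 libraries, in percent of CPM per kb of exon; each stacked bar is a library. Dsc2 takes 44.7% to 52.7% of the desmocollin level in the 8 tongue bars and 0.455% to 1.14% in the 7 epidermis bars, and Dsg3 takes a larger share of the desmoglein level in tongue.

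Ratios of 2 genes in the same library carried the same comparison into a test. On the log2 scale, Dsc1 to Dsc2 was 6.74 ± 0.206 in KO epidermis and -0.86 ± 0.366 in KO tongue, and it was 6.49 ± 0.794 in WT epidermis and -0.93 ± 0.150 in WT tongue. The summed Dsg1 copies to Dsg3 gave 3.62 ± 0.0639 in KO epidermis and 2.18 ± 0.397 in KO tongue, and 3.73 ± 0.588 in WT epidermis and 2.26 ± 0.162 in WT tongue. Taken by genotype, 7 ratios in 4 contrasts made 28 exact two-sided permutation tests, and none passed after adjustment (smallest adjusted p = 0.133). With 4 libraries against 3 the smallest p such a test can give is 0.0571, and with 4 against 4 it is 0.0286. These designs could not pass after adjustment.

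With both genotypes in the same exact permutation test, tissue labels permuted within each genotype (2450 splits, chosen after seeing the data), 6 of the 7 ratios differed between epidermis and tongue. Dsc1 to Dsc2 was 183-fold higher in epidermis, Dsc2 to Dsc3 was 109-fold lower, and Dsg1 to Dsg3 was 2.75-fold higher. Dsg3 to Dsg2 was 7.48-fold lower and Dsg1 to Dsg2 was 2.72-fold lower. For each of these the exact permutation p was 0.000408, the smallest it can give, and the adjusted p was 0.000571. Dsc1 to Dsc3, the upper-layer against the lower-layer desmocollin, was 1.67-fold higher in epidermis (exact permutation, adjusted p = 0.000952). Pkp1 to Pkp3, a pair of plakophilins, differed by -0.04 on the log2 scale (exact permutation, adjusted p = 0.764). Within the 4 KO animals, by these numbers, these 6 ratios went the same way in every animal. The narrowest was Dsg1 to Dsg2 in the animal of KO tongue 3, at -0.02 on the log2 scale.

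The 3 plaque genes were each higher in epidermis per library. Against epithelial genes Jup kept its call, while Pkp1 and Dsp did not. Jup encodes plakoglobin, the armadillo protein that the cadherin tails bind. Jup was at 731, 850, 650 and 868 CPM in KO epidermis and at 424, 866 and 569 CPM in WT epidermis. It was at 151, 82.4, 192 and 97.3 CPM in KO tongue and at 155, 105, 70.3 and 92.5 CPM in WT tongue. Epidermis and tongue did not overlap, and the log2 difference was 2.59 in KO (SE 0.27, edgeR adjusted p = 6.36e-06) and 2.57 in WT (SE 0.31, adjusted p = 8.83e-05).

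Pkp1, the plakophilin of upper epidermal layers, was at 1329, 1608, 1766 and 1922 CPM in KO epidermis and at 873, 1660 and 1533 CPM in WT epidermis. It was at 446, 273, 460 and 355 CPM in KO tongue and at 435, 288, 256 and 298 CPM in WT tongue. No tongue library reached the lowest epidermis library. The log2 difference was 2.14 in KO (SE 0.23, edgeR adjusted p = 8.13e-06) and 2.10 in WT (SE 0.28, adjusted p = 0.000152).

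Dsp encodes desmoplakin, the link to keratin. Dsp was at 4789, 5488, 6737 and 7965 CPM in KO epidermis and at 3072, 6337 and 5266 CPM in WT epidermis. It was at 2024, 1063, 1938 and 1423 CPM in KO tongue and at 2012, 1195, 1048 and 1239 CPM in WT tongue. Again no tongue library reached epidermis, with a log2 difference of 1.98 in KO (SE 0.29, edgeR adjusted p = 8.85e-05) and 1.85 in WT (SE 0.33, adjusted p = 0.00102). In tongue, KO tongue 1, KO tongue 3 and WT tongue 1 held the 3 highest values of Jup, Pkp1 and Dsp alike. A short gene on the other strand, Gm10129, overlaps the Dsp exons and reached at most 0.43 CPM.

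The promoter windows of the plaque genes Dsp and Jup are shown because the 3 plaque genes were higher in epidermis per library and were highest in the same 3 tongue libraries. Both windows come from RefSeq (GRCm38.p6), where 2 of these 3 genes matched and Pkp1 did not. The 250 bases before each start site are printed below 5′ to 3′ on the gene's strand. Capitals mark matches, on either strand, to the GC box (GGGCGG) and to the CACCC box, which do not overlap here. The Dsp window is chr13:38151044-38151293 on the plus strand, and the Jup window is chr11:100397791-100398040 on the minus strand.
Dsp: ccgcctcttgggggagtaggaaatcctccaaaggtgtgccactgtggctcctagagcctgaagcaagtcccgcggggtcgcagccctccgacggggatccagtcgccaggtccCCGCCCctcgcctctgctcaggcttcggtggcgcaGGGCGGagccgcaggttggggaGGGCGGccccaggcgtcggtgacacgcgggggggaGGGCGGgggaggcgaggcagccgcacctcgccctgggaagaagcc
Jup: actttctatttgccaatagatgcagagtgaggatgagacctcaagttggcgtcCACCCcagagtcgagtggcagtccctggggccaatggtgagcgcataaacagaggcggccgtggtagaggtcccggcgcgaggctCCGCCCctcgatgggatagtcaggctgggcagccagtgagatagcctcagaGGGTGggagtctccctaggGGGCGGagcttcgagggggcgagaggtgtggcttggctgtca

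The Dsp window had a GC content of 72.4% and the Jup window of 62%, against a median of 52.4% over the 32851 mouse promoter windows of the table. The GC box occurred 4 times before Dsp, first at base -137, and 2 times before Jup, at bases -112 and -42. This box occurs in 32.7% of all windows. The CACCC box occurred 2 times before Jup, at bases -197 and -61, and not before Dsp, and it occurs in 52.0% of all windows. Neither window held the letters TATAAA, found in 12.4% of windows. Neither held the AP-1 letters TGANTCA, found in 6.75%. The grainyhead-like letters AACCGGTT, found in 0.116%, were in neither.

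A second scaling set each library against 7 genes that epithelia of both tissues express (Cdh1, Esrp1, Esrp2, Rab25, Grhl2, Ap1m2 and Trp63). Their geometric mean was 144 to 188 CPM in KO epidermis, 102 to 174 CPM in WT epidermis, 35.1 to 45.3 CPM in KO tongue and 33.7 to 40.1 CPM in WT tongue. On this scale the median log2 difference of all genes was -2.05 in KO and -1.90 in WT. Higher in epidermis were 3.82% of all genes in KO and 4.13% in WT, and lower were 86.1% in KO and 77.4% in WT. Of the 10 genes, 7 passed in KO and 6 in WT. Of the 7 scaling genes themselves, 2 were called higher and 1 lower in epidermis in KO on this scale. In WT 3 of them were called higher and 2 lower. The scale is thus a mean over genes that themselves differ between the tissues.

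Relative to these epithelial genes Dsg3 was lower in epidermis, at -2.17 in KO (edgeR adjusted p = 4.25e-08) and -2.14 in WT (adjusted p = 3.86e-06). Dsg3 thus lay near the median of all genes on this scale, which was -2.05 in KO and -1.90 in WT. Dsc2 was lower by far, at -7.01 in KO and -6.93 in WT on the log2 scale. Dsg1a was at -0.58 in KO (edgeR adjusted p = 0.0104) and -0.55 in WT (adjusted p = 0.0244). Dsg1b was at -0.99 in KO (edgeR adjusted p = 0.000146) and -0.82 in WT (adjusted p = 0.0128). These 4 genes were thus lower in epidermis on this scale, Dsg1a and Dsg1b against their direction per library.

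Dsg2 and Jup stayed higher in epidermis relative to the mean of the epithelial genes. Dsg2 was at 0.59 in KO (edgeR adjusted p = 0.0469) and 0.81 in WT (adjusted p = 0.0101). Jup was at 0.52 in KO (edgeR adjusted p = 0.0383) and 0.59 in WT (adjusted p = 0.0446). Dsc1 passed in KO at 0.58 (edgeR adjusted p = 0.0217) and not in WT at 0.57 (adjusted p = 0.0686). Without WT epidermis 1 it passed in WT, at 0.86 (edgeR adjusted p = 1.33e-06). The other 3 genes did not pass in either genotype. Dsc3 was at -0.17 in KO and -0.22 in WT, Dsp at -0.14 and -0.13, and Pkp1 at 0.02 and 0.12.

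**Figure D3:**
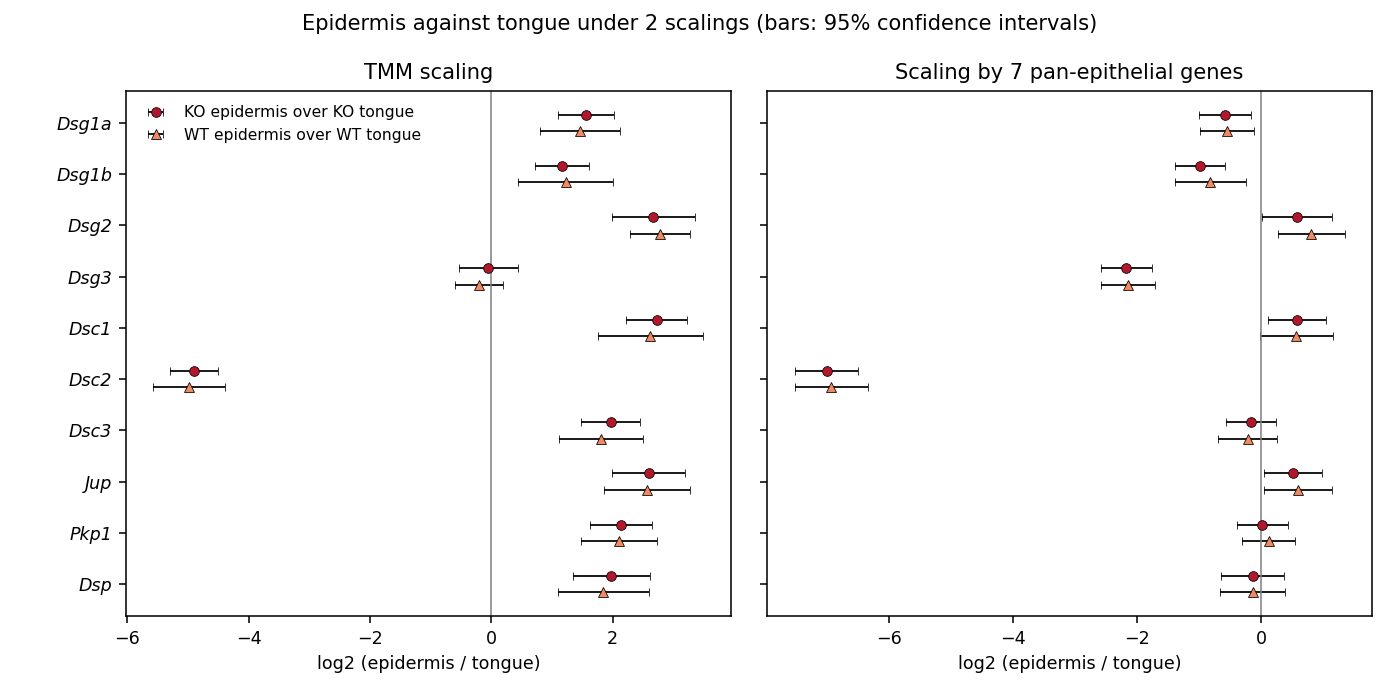
Log2 ratio of epidermis to tongue for the 10 genes in KO (circles) and WT (triangles), with 95% confidence intervals, scaled per library (left, TMM) and by 7 pan-epithelial genes (right). Per library 8 genes lie above 0; on the epithelial scale Dsg1a, Dsg1b and Dsg3 lie below 0, Dsc3, Pkp1 and Dsp lie around 0, and Dsc2 lies near -7.01 in KO.

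Per kb of exon, Dsp led in every group, with a mean of 647 CPM per kb in KO epidermis, 506 in WT epidermis, 167 in KO tongue and 142 in WT tongue. In epidermis of both genotypes the order below it was Pkp1, Dsc1, Dsg1a, Dsc3, Jup, Dsg1b, Dsg3, Dsg2 and Dsc2. In tongue of both genotypes it was Dsc2, Pkp1, Dsg1a, Dsc1, Dsc3, Dsg1b, Dsg3, Jup and Dsg2. Dsc2 was thus in the last place in epidermis, at 2.58 CPM per kb in KO and 2.40 in WT, and in the second in tongue, at 78.1 in KO and 77.1 in WT.

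Some neighbours in this order could not be separated over libraries. In KO epidermis Pkp1 exceeded Dsc1, and Dsc3 exceeded Jup, in 3 of 4 libraries. In WT epidermis Pkp1 exceeded Dsc1, and Jup exceeded Dsg1b, in 2 of 3. In KO tongue Dsc2 exceeded Pkp1, Dsc1 exceeded Dsc3 and Dsg3 exceeded Jup in 2 of 4, and in WT tongue Pkp1 exceeded Dsg1a and Dsc1 exceeded Dsc3 in 2 of 4. Further neighbours in tongue kept their order in 3 of 4 libraries, such as Dsc3 above Dsg1b in both genotypes. The place of Jup depends on its length, since its exons cover 6436 bases together and its longest transcript has 3205.

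The rest of the desmosome went mostly with the plaque genes. Of 9 other desmosome genes tested, 7 were higher in epidermis and 1 was lower in each genotype, with a median log2 difference of 1.92 in KO and 1.68 in WT, against medians over all genes of 0.07 and 0.03. Per library 32.7% of all genes were higher in KO and 32% in WT. On the epithelial scale none of the 9 was higher, and 2 in KO and 3 in WT were lower, where 86.1% of all genes were lower in KO and 77.4% in WT. Perp, a membrane protein of desmosomes, averaged 2470 ± 740 CPM in KO epidermis, 1910 ± 1055 in WT epidermis, 667 ± 56.3 in KO tongue and 663 ± 38.5 in WT tongue.

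The envelope plakins Ppl and Evpl, which bind keratin at desmosomes and the cornified envelope, were higher in epidermis by 2.21 and 2.12 on the log2 scale in KO and by 2.13 and 2.26 in WT. Cdsn, which encodes corneodesmosin of the outermost desmosomes, was higher by 2.18 in KO and 1.99 in WT. Among the plakophilins, Pkp3 was higher by 2.13 in KO and 2.20 in WT, and Pkp4 by 0.47 in KO (edgeR adjusted p = 0.0118) and 0.57 in WT (adjusted p = 0.00250). Pkp2, the plakophilin of simple epithelia and heart, was the gene lower in epidermis, named for that after its values were seen. Pkp2 averaged 1.29 CPM in KO epidermis, 0.80 in WT epidermis, 5.83 in KO tongue and 5.31 in WT tongue, with a log2 difference of -2.15 in KO (edgeR adjusted p = 0.000686) and -2.72 in WT (adjusted p = 7.10e-05).

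Genes of adherens junctions, the cadherin junctions that bind actin, were higher in epidermis for 8 of 10 in KO and 7 of 10 in WT, with a median log2 difference of 1.19 in KO and 1.12 in WT, and on the epithelial scale 6 of 10 were lower in each genotype (86.1% of all genes in KO, 77.4% in WT) and 3 in KO and 2 in WT were higher (3.82% of all genes in KO, 4.13% in WT). Cdh1, encoding E-cadherin, was higher by 2.76 in KO and 2.57 in WT. It is also 1 of the 7 scaling genes. Ctnnb1, encoding beta-catenin, was at 0.45 in KO (edgeR adjusted p = 0.0487) and 0.10 in WT (adjusted p = 0.749). Genes for the proteases and inhibitors that act on outer desmosomes were higher in epidermis for 6 of 8 in each genotype, where 32.7% of all genes were higher in KO and 32% in WT. On the epithelial scale 4 were higher and 2 lower in each. Per library Klk14 was lower in both genotypes and Ctsl in WT, both protease genes named for that after their values were seen. Klk14 averaged 0.91 CPM in KO epidermis, 0.74 in WT epidermis, 44.5 in KO tongue and 35.04 in WT tongue. The protease gene Asprv1 was higher by 3.99 in KO and 3.71 in WT, and Spink5, encoding a kallikrein inhibitor, by 2.04 in KO and 1.74 in WT.

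Between KO and WT none of the 10 genes was called in either tissue. In epidermis 0 of 10 passed (edgeR adjusted p = 0.9998 for each), none had an unadjusted p under 0.05, and DESeq2 and limma-voom called none. Over all genes edgeR called 0% in epidermis, with 187 genes at an unadjusted p under 0.05, while DESeq2 called 1 and limma-voom 0. In tongue 0 of 10 passed (smallest edgeR adjusted p = 0.939), none had an unadjusted p under 0.05, and DESeq2 and limma-voom called none. The share of all genes called in tongue was 0.0127%. KO and WT libraries overlapped for each of the 10 genes in both tissues. The share of all genes that overlap was not counted, so this says little about these genes.

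The estimates in epidermis were 0.03 for Dsg1b at the lowest and 0.33 for Dsg2 and Dsp at the highest, on the log2 scale of KO over WT. Intervals were wide, from -0.87 to 0.92 for Dsg1b and from -0.11 to 0.78 for Dsg2. A change of nearly 2-fold in Dsg1b was thus not excluded by these libraries. All 10 estimates were above 0 with WT epidermis 1, and 5 of 10 were without it, when they ran from -0.35 to 0.19. Hair follicle genes (8 of 8 above 0) and skeletal muscle genes (7 of 7 above 0) also lay above 0 in KO epidermis with none called. The sign was not particular to them: 10 of 10 adherens junction genes, 5 of 5 fibroblast genes and 4 of 6 granular genes were above 0. Of 3 Schwann cell genes 1 was. The size differed, with a median of 1.03 for hair follicle genes and a higher one for muscle genes. It was 0.18 for adherens junction, 0.37 for fibroblast, 0.14 for granular and 1.01 for mast cell genes. The median over all genes was 0.0013. On the epithelial scale hair follicle and muscle genes each had a median of 1.05. It was -0.04 for adherens junction, 0.251 for fibroblast and -0.18 for granular genes there. Hair follicle genes summed to 66.9 to 593 CPM in KO epidermis and 47.8 to 189 CPM in WT epidermis, and the part of these cells was not tested.

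In tongue all 10 estimates were also above 0, from 0.02 to 0.48, and 9 of 10 were without KO tongue 3. The median over all genes was 0.0087. For Dsg1a the estimate was 0.06 (95% interval -0.16 to 0.28) and for Dsc2 it was 0.02 (-0.27 to 0.30), both within 2-fold of no change. The widest intervals in tongue were those of Dsg2 at 0.48 (-0.25 to 1.203) and Jup at 0.31 (-0.40 to 1.01). The Dsg2 interval was wider than that of Dsg2 in epidermis, and the Dsg1b interval in epidermis was wider than both. Without KO tongue 3 the Dsg2 estimate was 0.02. No difference of the KO effect between the tissues was called for any of the 10 genes (0% of all genes called, 299 at an unadjusted p under 0.05, 1 called by DESeq2 and 0 by limma-voom). The differences of the effects ran from -0.12 for Dsg2 to 0.15 for Dsc3, and the interval for Dsc3 was -0.66 to 0.96. Without WT epidermis 1 they ran from -0.45 to 0.02, 1 of the 10 above 0, and within animals A383 to A387 from -0.77 to 0.0063, with no member called in either.

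The animal numbers fall into 3 ranges, and whether a range is a litter or a day is not stated in the labels. Within animals A383 to A387, with 2 KO and 2 WT libraries per tissue, estimates in tongue ran from -0.07 for Dsc1 to 1.01 for Dsg2. Dsg2, Dsg3 (0.51), Dsp (0.56), Pkp1 (0.56) and Jup (0.83) had an unadjusted p under 0.05, as did 12.9% of all genes in this fit. None of the 10 passed after adjustment (smallest edgeR adjusted p = 0.257), while 15 of all genes did (0.0939%). KO tongue 3, high for these 5 genes, is 1 of the 2 KO libraries there, and WT tongue 1 is not among the WT libraries. In epidermis they ran from -0.23 for Dsc1 to 0.42 for Dsg3, where Dsg3 alone had an unadjusted p under 0.05 (edgeR adjusted p = 0.131). In that epidermis fit 604 of all genes passed (3.83%) and 16.8% had an unadjusted p under 0.05, against none passing with all libraries. The other ranges hold too few libraries per tissue for such a value.

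Isoform ratios were also set between genotypes. Over the 7 ratios, KO minus WT differences ran from -0.16 to 0.25 on the log2 scale in epidermis and from -0.29 to 0.07 in tongue, and none passed (exact permutation, smallest adjusted p = 0.943 in epidermis and 0.862 in tongue). Without WT epidermis 1 the epidermis differences ran from -0.45 to 0.11. The tongue differences ran from -0.91 to 0.15 within animals A383 to A387 and from -0.05 to 0.22 without KO tongue 3. None passed in these either, but none of these tests could pass after adjustment, whatever the ratios. The smallest possible p was 0.0571 with 4 libraries against 3 and 0.0286 with 4 against 4, and fewer libraries raise it. The tests thus do not show that isoform use was the same in KO and WT. Dsc2 shares of KO and WT differed by less than the SD of either group in tongue. In epidermis they differed by less than the WT SD (0.357) and by more than the KO SD (0.082).

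**Figure D4:**
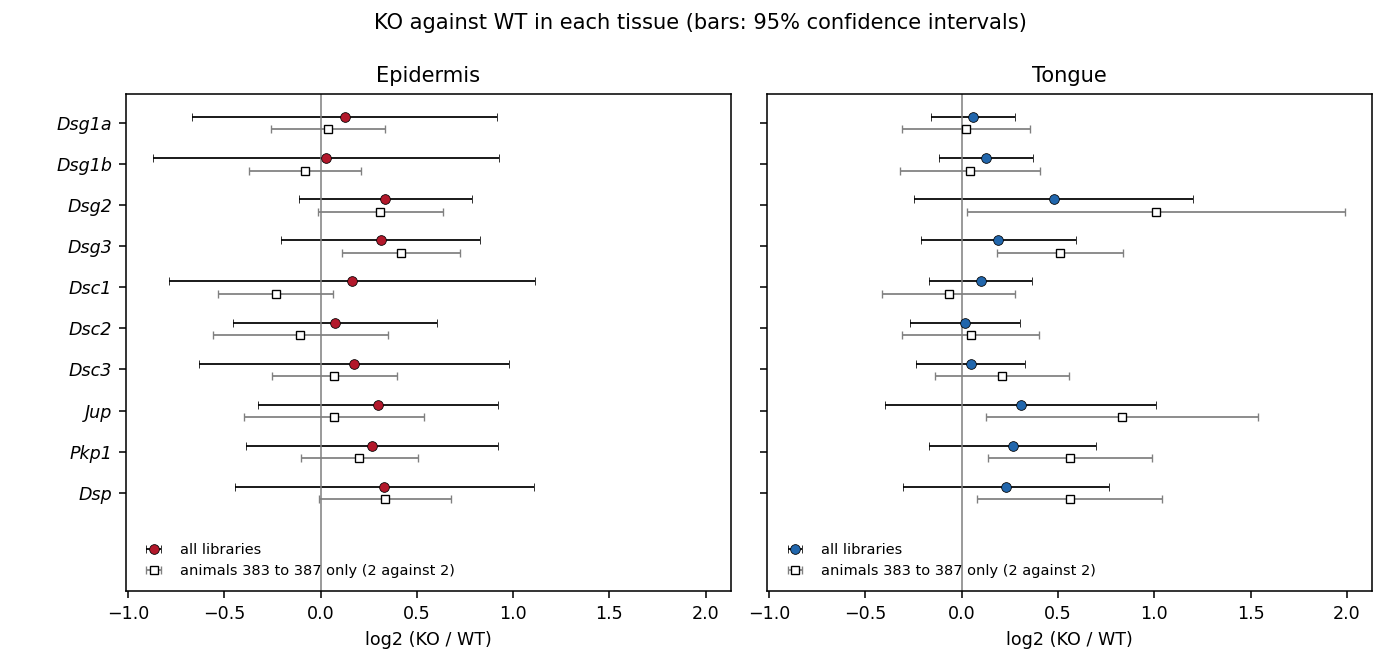
Log2 ratio of KO to WT for the 10 genes in epidermis (left) and tongue (right), with 95% confidence intervals; filled points use all libraries and open squares the 2 KO and 2 WT libraries of animals A383 to A387. All filled points have intervals that include 0, and in tongue the open squares of Dsg2, Dsg3, Jup, Pkp1 and Dsp lie above it, at 0.51 to 1.01.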

How the data were processed

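RNA was measured in 15 libraries (SMARTer V4 cDNA, TruSeq v2, paired reads of 37 bases, per the labels' protocols). STAR 2.5.2a and GRCm38.p3 are named in the submitters' processing notes. Which program counted reads, with which gene models and whether by strand, is not given in the sources used here. Raw counts per gene, as the authors deposited them, were used for every test. The authors also deposited a table of signal values, which are those counts divided by a constant of each library and which gave the gene symbols. The tables held 23420 mouse genes and 2 transgene entries, which were at most 0.0044% of a library and were left out.

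Each comparison was fitted over its own libraries, and the difference of effects over all 15, with edgeR 4.0.16 in R 4.3.3 (filterByExpr at a minimum count of 10, TMM factors, robust quasi-likelihood test, two-sided). P-values were adjusted by Benjamini-Hochberg across the whole table, and 0.05 was the threshold. All 10 genes passed the filter in each comparison. CPM used TMM factors over 15 libraries, and CPM per kb the union of GENCODE M21 exons (GRCm38). Ratios were log2 of counts plus 0.5 per kb, with exact permutation tests. DESeq2 1.42.0, limma 3.58.1 (voom), other scalings, no filter, blocks and left-out libraries were alternatives. The fits were tested on simulated data.

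Groups and replicate numbers came from titles, and animals from numbers in the sample descriptions, a reading that the labels do not state. Beyond that nothing says how the samples were raised, so p-values reflect only the spread among them, which may be technical. KO replicates of the same number carry the same animal number in both tissues, although deviations of its tissues correlated at only -0.183 to 0.221. Across genotypes, libraries of the same number correlated at 0.137 to 0.627 in epidermis and at -0.157 to 0.596 in tongue. By their animal numbers these are different animals, and the main fits did not pair them.

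The genes and the lists were chosen with earlier results of these data known. By the naming rule all 10 genes are named, with the 6 most abundant other desmosome genes, up to 3 of each further list, the targeted genes, and the genes nearest in pattern (smallest root mean square difference of centred log2(CPM + 1)).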

Additional observations from a re-analysis of the deposited data

Results flagged for a closer look

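Dsg2 was at 17.8 CPM in KO tongue 3, against 5.97 to 7.68 CPM in the other 3 KO tongue libraries and 4.77 to 8.43 CPM in WT tongue. Its gap to the nearest library was 0.856 of the range of the group, above the 95% limit of Dixon's test for 4 libraries. It was the only such value among 51 groups of 4 libraries, and chance gives about 1 in 20. Of 7 genes of simple or glandular epithelia, which also use Dsg2, Epcam was at 21.8 CPM in that library, against 11.6 to 17.6 CPM in the other KO tongue libraries and 14.8 to 18.3 CPM in WT tongue. The other 6 were second there to KO tongue 1, with Krt18 at 8.96 CPM in KO tongue 3 and 18.1 CPM in KO tongue 1. Their part in the Dsg2 value was not tested.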

How the results depend on the processing

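The number of the 10 genes called between tissues was 7 to 9 in KO and 6 to 9 in WT over all settings, and 0 in every setting for KO against WT and for the difference of effects. Scaled by pan-epithelial genes, tissue differences turned negative for Dsg1a (-0.58 in KO, -0.55 in WT), Dsg1b (-0.99, -0.82), Dsc3 (-0.17, -0.22) and Dsp (-0.14, -0.13). With the replicate block added (chosen after seeing the data) the KO values were -0.58, -0.99, -0.18 and -0.12, and without WT epidermis 1 (also added) the WT values were -0.38, -0.56, -0.032 and -0.067. Under the replicate block alone Dsg1b in WT had edgeR adjusted p = 0.0513. In WT the same number in both tissues is not the same animal number (correlations 0.0861 to 0.125), and with the animal number as a random effect (limma) 9 of the 10 genes were called. Under the block no other call among the 10 genes changed.

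KO against WT, scaled by pan-epithelial genes, Dsg1a, Dsg1b, Dsc2 and Dsc3 in epidermis were at -0.066, -0.14, -0.16 and -0.011, and Dsg1a, Dsc2 and Dsc3 in tongue at -0.037, -0.083 and -0.060. Within animals A383 to A387, Dsg1b, Dsc1 and Dsc2 in epidermis were at -0.080, -0.23 and -0.11, and Dsc1 in tongue at -0.066. Leaving out each library in turn, epidermis values ran from -0.19 to 0.33 for Dsg1a, -0.35 to 0.27 for Dsg1b, -0.23 to 0.41 for Dsc1, -0.081 to 0.32 for Dsc2 and -0.15 to 0.41 for Dsc3. Tongue values ran from -0.078 to 0.078 for Dsc2 and -0.023 to 0.13 for Dsc3, and the KO tissue difference of Dsg3 from -0.20 to 0.092. No value in this paragraph was called. The cause was not tested.

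The tissue difference of Pkp1 to Pkp3 turned to 0.19 in KO and 0.14 in WT within animals A383 to A387, and ran from -0.093 to 0.078 in KO and -0.21 to 0.066 in WT with libraries left out. With both genotypes in 1 exact test (added) the ratios passed, at 1.46 for Dsg1 to Dsg3, -1.45 for Dsg1 to Dsg2, 0.74 for Dsc1 to Dsc3, 7.51 for Dsc1 to Dsc2, -6.77 for Dsc2 to Dsc3 and -2.90 for Dsg3 to Dsg2, since more splits allow a smaller p. Depth limits Dsg2 in tongue (59 to 179 counts) and Dsc2 in epidermis (86 to 320 counts).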

Other observations

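The genes whose pattern over the 15 libraries was nearest to a cadherin or plaque gene were searched among 15712 genes, as a description. Nearest to Dsc2 was Maged2, with a root mean square difference of 0.174 in log2(CPM + 1) after centring. Nearest to Dsg3 was Ghdc (0.168), to Dsg2 Rgma (0.262), to Dsc1 the tissue factor gene F3 (0.203) and to Dsc3 Cdcp1 (0.154). Nearest to Jup was Nectin1 (0.123), which encodes an adherens junction protein, to Pkp1 Epha1 (0.151) and to Dsp the integrin gene Itga3 (0.178). Among the 10 genes themselves the closest pair was Dsp and Pkp1 (0.13), closer than the copies Dsg1a and Dsg1b (0.217). The 15 libraries fall into 2 tissues, so this measure mostly follows the tissue difference.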
